A study of Mus musculus with 12 samples.

Results

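The 38 genes described here encode the enzymes that bring fatty acids into the mitochondrial matrix and shorten them there: the acyl-CoA synthetases, the carnitine transferases, the enzymes of beta-oxidation with their electron carriers, the acyl-CoA thioesterases and the enzymes that handle propionyl-CoA. They were chosen by function from a list of gene symbols. The rule used no measured value, but earlier results of these data were known when the members were chosen. All 38 were among the 55401 genes counted, and all 38 passed the filter on low counts, which kept 16540 genes. Their RNA was measured by RNA-seq in scWAT, the subcutaneous white adipose tissue, of female mice, aged 16 weeks at the start of treatment. The 4 groups of 3 libraries were wild-type mice (Jmjd1a +/+) at 30°C, wild-type mice at 8°C, Jmjd1a HY/HY mice at 30°C and the same genotype at 8°C, where each mouse had spent 1 week at 30°C before 1 week at the stated temperature. Wild-type mice are called wild types, and Jmjd1a HY/HY mice are called mutants from here on. The HY allele was made with CRISPR-Cas9 in C57BL/6J eggs and replaces a histidine of JMJD1A, an H3K9 demethylase, with tyrosine, which removes its catalytic activity. Every cell of the animal carries the allele, so that an effect in fat cannot be told apart from one that starts in another tissue. The comparisons ask how far cold raises these genes in scWAT and how much of that rise is seen when the demethylase is inactive.

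A fatty acid is first joined to coenzyme A by an acyl-CoA synthetase. Long chains are then passed to carnitine by CPT1 on the outer mitochondrial membrane, carried across the inner membrane and returned to coenzyme A by CPT2. In the matrix each turn of beta-oxidation consists of a dehydrogenation, a hydration, a second oxidation and a thiolysis, which cuts off acetyl-CoA, and the electrons of the first step pass through ETF and its dehydrogenase to ubiquinone. Thermogenic adipocytes, brown or beige, burn fatty acids through this route to make heat, whereas white adipocytes mainly store them.

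The libraries held from 13592629 to 26352081 counts on the sense strand of genes, and every library from 8°C held fewer than any library from 30°C. All 7 markers listed as white adipocyte (Adipoq, Lep, Plin1, Cfd, Retn, Lipe and Fabp4) were detected in every group. Their summed level was 21817 to 48075 CPM (CPM, counts relative to the TMM-scaled library size). The sum leans on Fabp4 and Cfd, and whether it tells white from thermogenic adipocytes was not tested. The 6 thermogenic adipocyte markers (Ucp1, Cidea, Elovl3, Dio2, Cox7a1 and Cox8b) summed to 60.8 to 231 CPM at 30°C, to 8330 to 9240.4 CPM in wild types at 8°C and to 525 to 1665 CPM in mutants at 8°C. Replicate 2 of wild types at 30°C had 1582 CPM of 9 skeletal muscle markers against 3.64 to 24.7 CPM in the other 11 libraries. Replicate 3 at 30°C was the highest of its group for 32 of the 38 members in wild types and for 30 in mutants, and these same libraries had the highest white adipocyte sums of their groups, 42297 and 48075 CPM. The part of muscle or of adipocyte content in the members' levels was not tested. The labels do not say whether each library came from 1 mouse, and the p-values measure the spread between these libraries, which may be technical.

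In wild types, cold raised most of the pathway. The summed level of the 38 members was 4815, 4996 and 7631 CPM at 30°C and 16983, 19798 and 20450.4 CPM at 8°C. In mutants the sums were 5297, 5205 and 9209.7 CPM at 30°C and 10774, 11324 and 13079.9 CPM at 8°C. At 8°C the groups of the 2 genotypes did not overlap, and at 30°C they did. Groups that do not overlap are not rare among single genes. Over all 16540 genes tested, this held for 43.4% with cold in wild types and 18.3% in mutants. Between genotypes it held for 35.4% at 8°C and 18.3% at 30°C. Of the 38 members, 33 were above with cold in wild types and 20 in mutants. In mutants, 27 were below and 1 above at 8°C, and 2 were below at 30°C. Cpt1b is among the 33 and the 27. In bulk tissue, fewer cells of a type and less RNA per cell cannot be told apart.

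**Figure D1:**
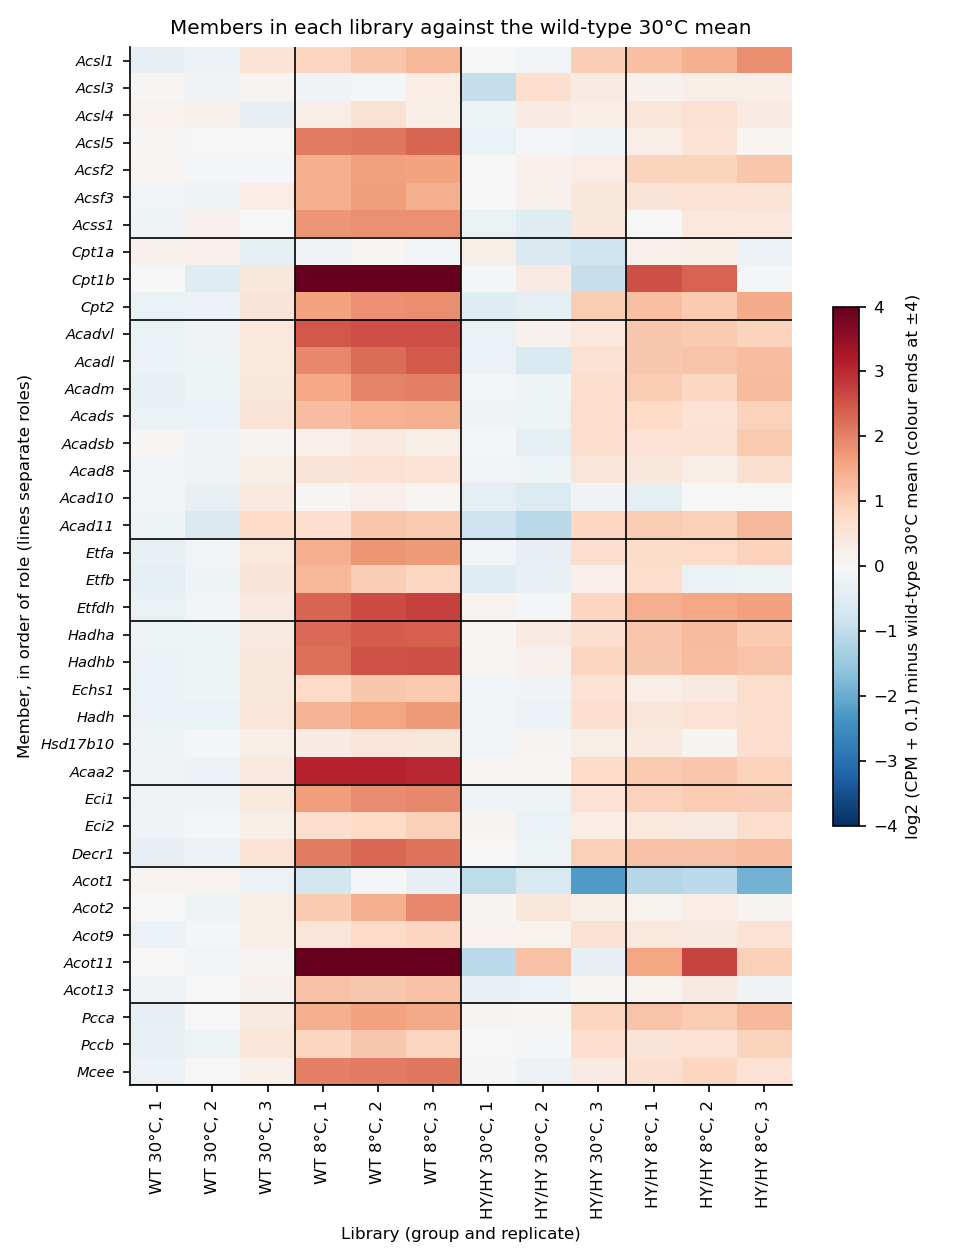
Each of the 38 members (rows, in order of role) in each of the 12 libraries (columns), as log2 (CPM + 0.1) minus the mean of wild types at 30°C, with red for higher and blue for lower. The 3 libraries of wild types at 8°C are the reddest block, those of mutants at 8°C are paler, and Cpt1a, Acsl3, Acad10 and Acot1 show no such block.

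Of the 38 members, 29 rose with cold in wild types and 0 fell, by the quasi-likelihood test of edgeR, where a call needed a Benjamini-Hochberg adjusted p (over all genes) under 0.05 together with a fold over 1.5 or under 0.67. Over all genes tested, 10.3% were called higher and 6.93% lower in this comparison. Cpt1b passed the filter on low counts only through the wild-type libraries from 8°C, so that it had to differ from the other groups. Of the other 37 members, 28 rose, and their median log2 fold change was 1.499, with a range from -0.36 to 5.05, against -0.07 over all genes. The 9 that were not called were Acsl3, Acsl4, Cpt1a, Acadsb, Acad8, Acad10, Acad11, Hsd17b10 and Acot1.

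In mutants the same exposure raised 1 member past these limits, Acsf2, and lowered 0, where 0.181% of all genes were called higher and 0.0665% lower. The median log2 fold change of the members was 0.60, against -0.01 over all genes, 36 of 38 had a positive value, and 24 had an unadjusted p under 0.05. The shares of all genes with a positive value or such a p are not given here. Libraries with the same replicate number deviated together in this comparison (r from 0.112 to 0.303 over 3 pairs). The number was also fitted as a replicate block over all 12 libraries, with 1 effect per number shared by the 4 groups. With this block 9 members were called higher, where 0.774% of all genes were called higher and 0.193% lower. The 8 beside Acsf2 were Acsl1, Cpt2, Acadl, Acadm, Etfdh, Hadha, Eci1 and Pcca, with log2 fold changes from 0.80 to 1.22 and adjusted p from 0.0127 to 0.0497. The count also depended on 1 library: without replicate 3 of mutants at 30°C, 20 members were called higher and the median was 0.85. DESeq2 called 11 members. The shares of all genes called without that library and with DESeq2 are not given here, so these counts show only that the members' calls moved. The signed log2 fold change with cold was lower in mutants than in wild types for 31 members and higher for 7. This count includes Cpt1b, and the share of all genes with a lower value is not given here. Across the 38 genes, the 2 sets of log2 fold changes, which share no library, had Pearson's r = 0.80 and Spearman's rho = 0.66. These points are genes measured in the same 12 libraries, not replicates. They include Cpt1b, which has the largest value in both sets and passed the filter only through wild types at 8°C. The correlations were not computed without it, so they are not read as agreement between the genotypes.

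At 8°C, 17 members were lower in mutants than in wild types and 0 were higher, against 4.42% of all genes lower and 1.51% higher. Without Cpt1b, 16 of 37 were lower, with a median log2 difference of -0.84, against 0.01 over all genes. All 17 were among the 29 that cold raised in wild types, a comparison with which this one shares the wild-type libraries at 8°C. Without replicate 3 of wild types at 8°C the count was 11. The other 12 of the 29 were not called between the genotypes at 8°C. At 30°C, 0 members were called in either direction, where 0.562% of all genes were higher and 0.441% lower in mutants. Of the 38, 1 had an unadjusted p under 0.05 there, and DESeq2 called 1 member lower. The members' median difference at 30°C was 0.13, and it ranged from -0.13 to 0.33 when 1 library was left out.

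The interaction, the cold response of mutants less the wild-type response, was called at an adjusted p under 0.05 for 11 members, all negative, against 2.07% of all genes negative and 0.169% positive. These 11 were Acsl5, Acsf2, Acsf3, Acss1, Acadvl, Hadha, Hadhb, Acaa2, Acot2, Acot11 and Mcee. The count depended on single libraries. It fell to between 3 and 6 without replicate 1 or 2 of wild types at 30°C, or without any 1 library from 8°C, and was 10 to 15 without any of the other 4 libraries. Acsl5, Acaa2 and Mcee were called under all 20 other settings that kept the threshold at 0.05.

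**Figure D2:**
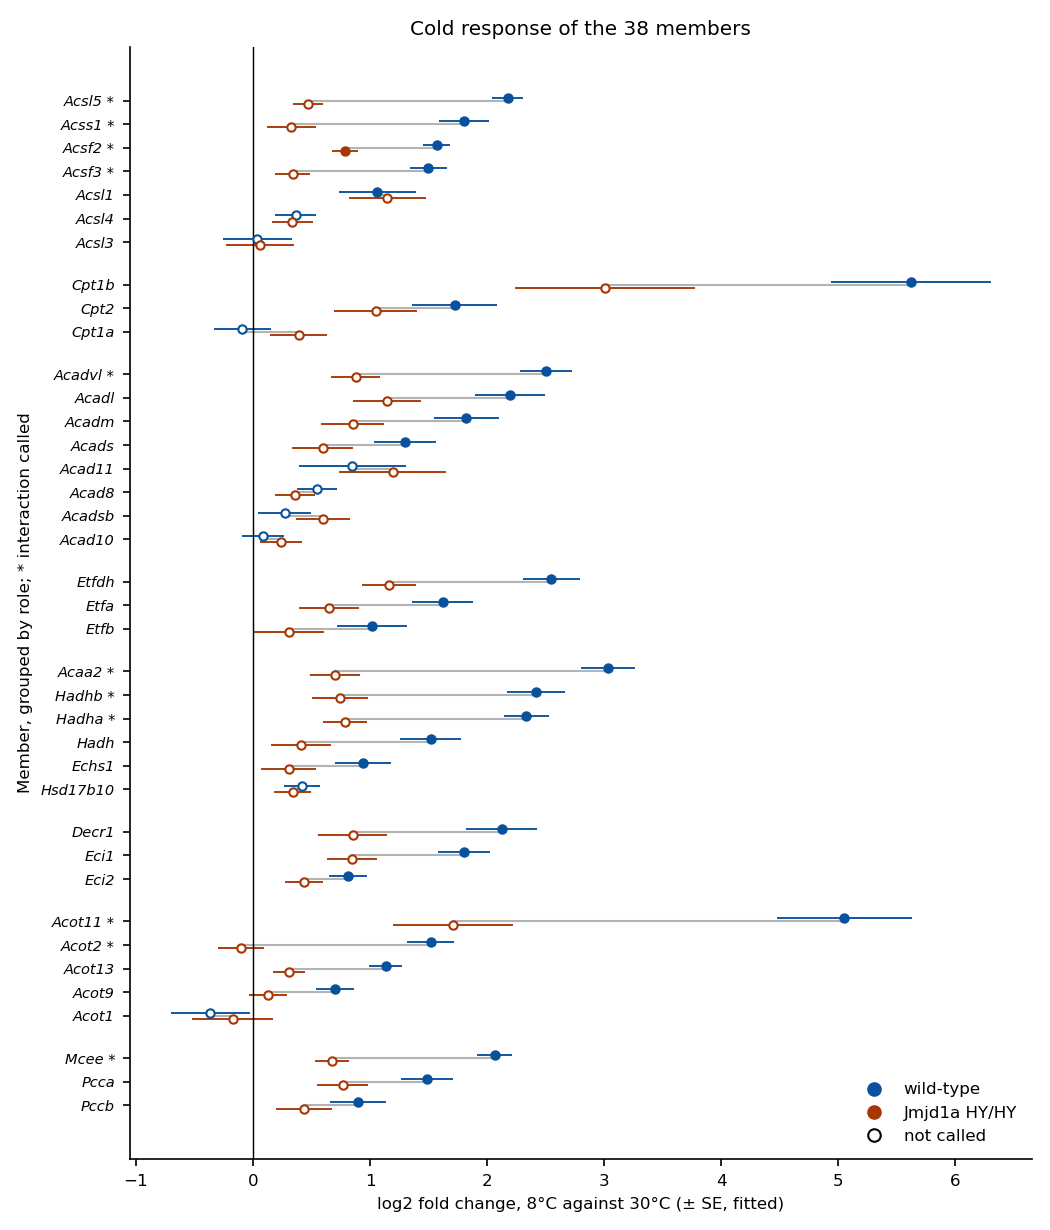
Fitted log2 fold change at 8°C against 30°C (horizontal axis, with SE) of each member in wild-type (blue) and mutants (brown), grouped by role. Filled points passed the limits and open ones did not. Asterisks mark the 11 members whose 2 responses differed in the interaction test, and Acsl1, Acsl3 and Acsl4 have points close together. Cpt1b, drawn at its fitted value, is at 1 to 3 counts in wild types at 30°C.

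Of the 7 acyl-CoA synthetases, 5 rose with cold in wild types and 4 were lower in mutants at 8°C. Acsl1, the main long-chain synthetase of adipocytes, was 969.6, 1044 and 1781 CPM in wild types at 30°C and 2209.8, 2635 and 3081 CPM at 8°C. In mutants it was 1205, 1118 and 2382 CPM at 30°C and 2807, 3236 and 4393 CPM at 8°C. The temperatures did not overlap in either genotype, while the genotypes overlapped at each temperature. Its log2 fold change with cold was 1.06 ± 0.33 (SE, adjusted p = 0.0367) in wild-type and 1.15 ± 0.33 (SE, adjusted p = 0.164) in mutants. With the replicate block the value in mutants was 1.20 ± 0.17 (SE, adjusted p = 0.0182). The difference between the genotypes' responses was 0.09 ± 0.46 (SE, adjusted p = 0.952). The call in wild types was lost in 6 of 21 other settings, each without 1 library, with adjusted p up to 0.12.

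Acsl5, a long-chain synthetase of the outer mitochondrial membrane and the endoplasmic reticulum, was 98.4, 93.6 and 93.2 CPM in wild types at 30°C and 398, 412 and 479 CPM at 8°C. The corresponding levels in mutants were 79.7, 89.5 and 85.97 CPM and 114, 138 and 101 CPM. All 3 wild-type libraries from 8°C stood above all 9 others. The rise was 2.18 ± 0.13 (SE, adjusted p = 1.21e-05) in wild-type and 0.47 ± 0.13 (SE, adjusted p = 0.153) in mutants, with an interaction of -1.71 ± 0.18 (SE, adjusted p = 0.00471). At 8°C the genotypes differed by -1.87 ± 0.13 (SE, adjusted p = 0.000156).

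The other synthetases that rose were Acsf2, a medium-chain enzyme, Acsf3, which activates malonate, and Acss1, which activates acetate in the matrix. Their log2 fold changes in wild types were 1.57, 1.499 and 1.80, and their interactions -0.78 ± 0.16, -1.16 ± 0.22 and -1.48 ± 0.29 (SE), all called. Acss1 averaged 74.4 ± 2.04 CPM in wild-type and 25.9 ± 4.03 CPM (SD, n = 3) in mutants at 8°C. Acsf2 is the 1 member called with cold in mutants, at 0.78 ± 0.11 (SE, adjusted p = 0.0188). Acsl3, found on lipid droplets and the endoplasmic reticulum, and Acsl4, which prefers arachidonate, had log2 fold changes of 0.04 and 0.36 in wild-type and 0.06 and 0.34 in mutants, none of them called.

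The carnitine transferases split by isoform. Cpt1a, the form of CPT1 found in liver and in white adipocytes, was 64.1, 65.5 and 45.2 CPM in wild types at 30°C and 51.7, 59.1 and 53.3 CPM at 8°C. It was 68.3, 38.1 and 33.4 CPM and 66.6, 67.7 and 49.04 CPM in mutants. All 4 groups overlapped, and its log2 fold change with cold was -0.09 ± 0.24 (SE, adjusted p = 0.813) in wild types. Cpt1b, the muscle and brown fat form, had 2, 1 and 3 counts in wild types at 30°C and 65, 60 and 74 counts at 8°C, or 4.83, 4.53 and 4.75 CPM. Against a floor of 3 counts in each library from 30°C, this is at least 34.9-fold higher. Counts in mutants were 2, 4 and 0 at 30°C and 16, 14 and 1 at 8°C, so that these groups overlapped.

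Since Cpt1b was tested only because of its level in wild types at 8°C, its p-values against that group are not given. In mutants its cold response had an adjusted p of 0.131. In the wild-type library with the high muscle markers Cpt1b had 1 count. Read pairs that fit several genes or places were not counted, so the level of Cpt1b is uncertain. Cpt2, the inner-membrane transferase, was 104, 107 and 178 CPM in wild types at 30°C and 381, 444 and 459.8 CPM at 8°C, and 89.1, 97.1 and 252 CPM and 293, 263 and 352 CPM in mutants. Temperatures did not overlap in either genotype. Its rise was 1.72 ± 0.36 (SE, adjusted p = 0.00571) in wild types, and its difference between the genotypes at 8°C, -0.502 ± 0.35 (SE, adjusted p = 0.44), was not called.

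Among the 8 acyl-CoA dehydrogenases, the 4 named for a chain length rose in wild types. Among these 4 the rise was larger the longer the chain named. The log2 fold changes were 2.51 for Acadvl (very long chains), 2.19 for Acadl (long chains), 1.82 for Acadm (medium chains) and 1.30 for Acads (short chains). With SEs of 0.22, 0.30, 0.28 and 0.26, neighbours in this order differed by less than the sum of their SEs. In mutants the values were 0.88, 1.14, 0.85 and 0.60, none called, and Acadvl was no longer first. With the replicate block, Acadl and Acadm were called in mutants, at 1.22 ± 0.20 (SE, adjusted p = 0.0264) and 0.90 ± 0.17 (SE, adjusted p = 0.0397).

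Acadvl was 267, 291 and 436 CPM in wild types at 30°C and 1795, 1928 and 1929.7 CPM at 8°C. In mutants it was 267, 363 and 433 CPM and 681, 667 and 603 CPM. The temperatures did not overlap in either genotype, and the genotypes overlapped at 30°C and not at 8°C. Its difference at 8°C was -1.53 ± 0.21 (SE, adjusted p = 0.00243) and its interaction -1.63 ± 0.30 (SE, adjusted p = 0.0218). Acadl was 314, 325 and 499 CPM in wild types at 30°C and 1417, 1762 and 2027 CPM at 8°C. Its levels were 313, 242 and 563 CPM and 776, 819 and 873 CPM in mutants. It was lower in mutants at 8°C by 1.08 ± 0.29 on the log2 scale (SE, adjusted p = 0.0441), a call lost in 8 of 21 other settings, with adjusted p up to 0.154.

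Acadm averaged 318 ± 94.7 CPM in wild types at 30°C and 1127 ± 194 CPM at 8°C, against 643 ± 95.5 CPM in mutants at 8°C (SD, n = 3). For Acads these means were 143 ± 45.9, 352 ± 22.8 and 236 ± 28.9 CPM. The genotypes did not differ past the threshold at 8°C for either (adjusted p = 0.0936 and 0.216). The dehydrogenases of branched chains, Acadsb for 2-methylbutyryl-CoA and Acad8 for isobutyryl-CoA, and the less studied Acad10 and Acad11 were called in 0 of the 5 comparisons. Their log2 fold changes with cold in wild types were 0.27, 0.55, 0.08 and 0.85, and 0.60, 0.36, 0.24 and 1.19 in mutants. Acad8 had an adjusted p of 0.0381 in wild types and stayed under the fold limit.

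The 3 electron carriers rose in wild types. Etfdh, which hands the electrons to ubiquinone, was 62.96, 69.8 and 96.99 CPM at 30°C and 377, 464 and 503 CPM at 8°C in wild-type, and 82.8, 73.4 and 137 CPM and 205, 219 and 232 CPM in mutants. In both genotypes the temperatures did not overlap, and at 8°C the genotypes did not either. The rise was 2.55 ± 0.24 (SE, adjusted p = 4.86e-05) and 1.16 ± 0.23 (SE, adjusted p = 0.0758), and the genotypes differed at 8°C by -1.03 ± 0.23 (SE, adjusted p = 0.0208). The interaction, -1.38 ± 0.33, had an adjusted p of 0.051.

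Etfa, a subunit of the electron transfer flavoprotein, was 229, 259.9 and 374 CPM in wild types at 30°C and 773, 965 and 917 CPM at 8°C, and 259, 226 and 460.1 CPM and 468, 480.0 and 531 CPM in mutants. Its partner subunit Etfb was 12.7, 14.6 and 23.6 CPM in wild types at 30°C and 41.7, 32.3 and 29.3 CPM at 8°C, and 11.8, 13.3 and 19.02 CPM and 26.5, 13.5 and 14.4 CPM in mutants. For both subunits, the wild-type temperatures did not overlap. The rises in wild types were 1.62 ± 0.26 (SE, adjusted p = 0.00127) and 1.02 ± 0.30 (SE, adjusted p = 0.029). At 8°C the genotypes had adjusted p = 0.0705 for Etfa and 0.0892 for Etfb.

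Hadha and Hadhb encode the subunits of the trifunctional protein, which carries out the remaining steps of each turn for long chains. They lie head to head on chromosome 5, so that the bases between their start sites are upstream of both. RefSeq (GRCm38.p6) puts 272 bases there, at chr5:30154981-30155252, printed on the strand of Hadhb. None of the 6 motifs searched for in the promoters (such as CCAAT) occurs in it, so that no letter is in capitals.

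Hadha and Hadhb: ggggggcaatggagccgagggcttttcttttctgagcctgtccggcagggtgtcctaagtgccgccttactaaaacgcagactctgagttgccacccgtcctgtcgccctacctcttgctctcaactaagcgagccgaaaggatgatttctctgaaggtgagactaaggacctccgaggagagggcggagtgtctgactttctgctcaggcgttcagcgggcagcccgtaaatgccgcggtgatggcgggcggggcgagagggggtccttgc

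Hadha was 227, 225 and 328 CPM in wild types at 30°C and 1232, 1363 and 1348 CPM at 8°C, and 264, 321 and 402 CPM and 557, 609.8 and 532 CPM in mutants. Hadhb was 218, 224 and 352 CPM in wild types at 30°C and 1181, 1522 and 1548 CPM at 8°C, and 266, 293 and 465 CPM and 545, 608 and 564 CPM in mutants. For both genes the libraries from 8°C were above those from 30°C in each genotype, and at 8°C all wild-type libraries were above all mutant libraries. The rises were 2.34 ± 0.20 and 2.42 ± 0.25 (SE) in wild-type and 0.78 ± 0.19 and 0.74 ± 0.24 in mutants. Their interactions were -1.55 ± 0.27 (SE, adjusted p = 0.0146) and -1.68 ± 0.34 (SE, adjusted p = 0.0305).

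Acaa2, the thiolase of medium chains, changed the most in this role. It was 119, 110.4 and 172 CPM in wild types at 30°C and 1114, 1119.9 and 1054 CPM at 8°C. In mutants it was 135, 137 and 222 CPM and 269, 283 and 251 CPM. The wild-type libraries from 8°C stood far above all others, and the mutant temperatures did not overlap. The rise was 3.03 ± 0.23 (SE, adjusted p = 1.71e-05) in wild-type and 0.70 ± 0.21 (SE, adjusted p = 0.176) in mutants. The interaction was -2.33 ± 0.30 (SE, adjusted p = 0.00787), and at 8°C the genotypes differed by -2.03 ± 0.22 (SE, adjusted p = 0.000893).

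Of the other members of this role, Hadh, the hydroxyacyl-CoA dehydrogenase of shorter chains, rose by 1.52 ± 0.26 and Echs1, the short-chain hydratase, by 0.94 ± 0.24 (SE) in wild types. Hadh was called lower in mutants at 8°C (-0.98 ± 0.26, SE, adjusted p = 0.041), and Echs1 was not (-0.53 ± 0.24, SE, adjusted p = 0.213). Hsd17b10, whose enzyme serves branched-chain oxidation and mitochondrial tRNA processing, averaged 83.1 ± 13.5 CPM in wild types at 30°C and 111 ± 6.04 CPM at 8°C (SD, n = 3), and had a log2 fold change of 0.42 ± 0.16 (SE, adjusted p = 0.0702).

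The enzymes that prepare unsaturated chains all rose in wild types. Decr1, the dienoyl-CoA reductase, was 179, 189 and 329 CPM in wild types at 30°C and 945, 1102 and 997 CPM at 8°C. In mutants it was 221, 194 and 429 CPM and 504, 498 and 521 CPM. The genotypes overlapped at 30°C and not at 8°C. Its rise was 2.13 ± 0.30 (SE, adjusted p = 0.000562) in wild types, and its difference at 8°C, -0.9996 ± 0.29 (SE, adjusted p = 0.063), missed the threshold but was called in 9 of 21 other settings. The isomerases Eci1 and Eci2 rose by 1.80 and 0.81, and Eci1 was lower in mutants at 8°C (-0.86 ± 0.22, SE, adjusted p = 0.0335).

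Of the 5 thioesterases, which release free fatty acids from coenzyme A, 4 rose with cold in wild types and 3 were lower in mutants at 8°C. Acot11, a thioesterase that thermogenic fat is known to induce in the cold, was 7.07, 6.64 and 7.76 CPM in wild types at 30°C and 249.8, 255 and 208 CPM at 8°C. In mutants it was 3.29, 16.3 and 5.72 CPM and 21.7, 47.4 and 14.05 CPM, and these temperatures overlapped. The rise in wild types was 5.05 ± 0.57 (SE, adjusted p = 0.000123), and the genotypes differed at 8°C by -3.09 ± 0.52 (SE, adjusted p = 0.00561). The interaction was -3.35 ± 0.72 (SE, adjusted p = 0.0371), the largest in size of the 38 members, and was lost in 10 of 20 other settings.

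Acot1 (cytosolic) and Acot2 (mitochondrial) are near-identical neighbours on chromosome 12. Read pairs that fit both were not counted, so their levels are uncertain. Acot2 was 16.9, 14.7 and 19.9 CPM in wild types at 30°C and 35.5, 46.4 and 65.3 CPM at 8°C, and 18.5, 23.4 and 20.2 CPM and 18.7, 20.9 and 18.2 CPM in mutants. Acot1 was 39.1, 39.9 and 31.2 CPM in wild types at 30°C and 21.8, 35.00 and 29.00 CPM at 8°C, and 17.9, 24.1 and 7.54 CPM and 16.4, 17.8 and 9.82 CPM in mutants. Wild-type libraries from 8°C were above all others for Acot2, while for Acot1 the temperatures overlapped in both genotypes and each mutant library was below each wild-type one from the same temperature.

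The rise of Acot2 was 1.52 ± 0.20 (SE, adjusted p = 0.000313) in wild types, and in mutants its log2 fold change was -0.10 ± 0.20 (SE, adjusted p = 0.845). The interaction was -1.62 ± 0.28 (SE, adjusted p = 0.0153). For Acot1 the log2 fold change with cold in wild types was -0.36 ± 0.34 (SE, adjusted p = 0.465). Its differences between the genotypes, -1.15 ± 0.34 (SE, adjusted p = 0.113) at 30°C and -0.96 ± 0.35 (SE, adjusted p = 0.127) at 8°C, were not called. Acot13 rose by 1.13 ± 0.14 and Acot9 by 0.70 ± 0.16 (SE) in wild types. Acot13 was lower in mutants at 8°C (-1.0002 ± 0.14, SE, adjusted p = 0.00236), and Acot9 was not called there (-0.26).

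The 250 bases before the RefSeq start of each (GRCm38.p6, chr12:83987611-83987860 and chr12:84009252-84009501, both on the plus strand) are shown because the 2 genes differ in response. Capitals mark the letters CCAAT, the box bound by NF-Y, on either strand, which stands at different places in each.
Acot2: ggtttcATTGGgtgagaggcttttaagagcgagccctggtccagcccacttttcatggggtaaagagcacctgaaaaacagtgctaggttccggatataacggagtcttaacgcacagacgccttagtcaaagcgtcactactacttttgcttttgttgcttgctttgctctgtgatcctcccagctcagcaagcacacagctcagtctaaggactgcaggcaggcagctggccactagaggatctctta
Acot1: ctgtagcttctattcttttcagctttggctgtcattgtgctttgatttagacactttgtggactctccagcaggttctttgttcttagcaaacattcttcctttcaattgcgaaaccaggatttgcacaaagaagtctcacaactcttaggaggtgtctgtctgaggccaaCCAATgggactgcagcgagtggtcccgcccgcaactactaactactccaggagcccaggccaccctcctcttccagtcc

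The 3 members of the propionyl-CoA route, which takes up the remnant of odd and branched chains, rose in wild types. Mcee, the methylmalonyl-CoA epimerase, was 26.9, 31.9 and 36.2 CPM in wild types at 30°C and 128, 133 and 136 CPM at 8°C. In mutants it was 30.6, 26.7 and 39.1 CPM and 49.99, 56.6 and 46.9 CPM. The temperatures did not overlap in either genotype, and the genotypes overlapped at 30°C and not at 8°C. The rise was 2.06 ± 0.15 (SE, adjusted p = 1.68e-05) in wild-type and 0.67 ± 0.15 (SE, adjusted p = 0.0934) in mutants, with an interaction of -1.39 ± 0.21 (SE, adjusted p = 0.0113).

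Pccb, the beta subunit of propionyl-CoA carboxylase, was 139, 148 and 239.8 CPM in wild types at 30°C and 312, 362 and 310.3 CPM at 8°C, and 168, 159.8 and 270.4 CPM and 243, 252 and 313 CPM in mutants. The temperatures overlapped in mutants and not in wild types. Pccb rose by 0.90 ± 0.24 (SE, adjusted p = 0.0194) and Pcca, the alpha subunit, by 1.49 ± 0.22 (SE, adjusted p = 0.000733) in wild types. At 8°C, the genotypes differed by -0.28 and -0.36 on the log2 scale, neither called.

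**Figure D3:**
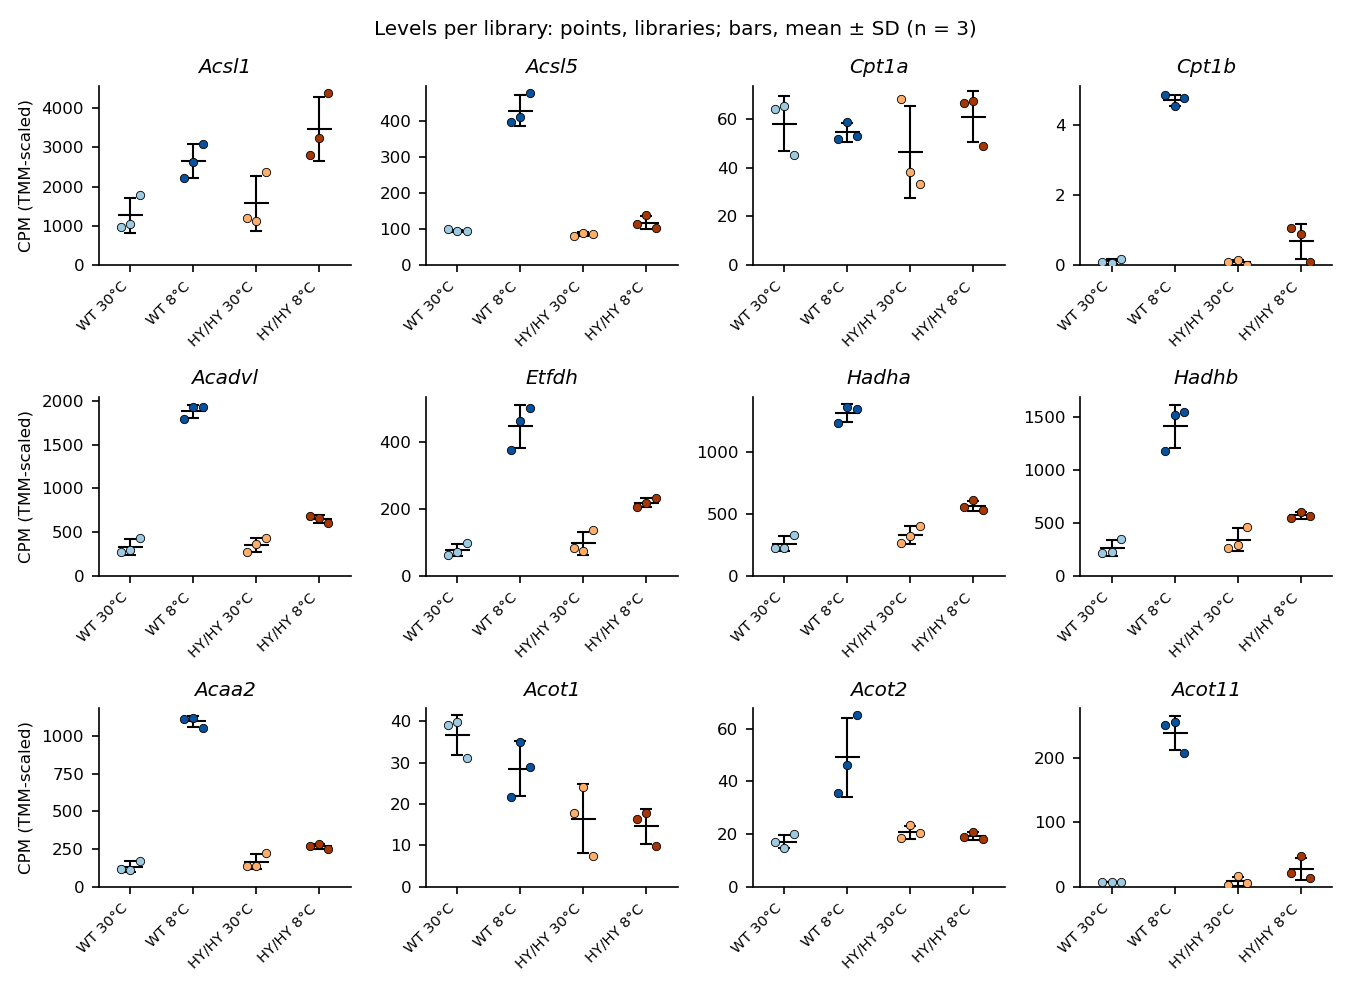
TMM-scaled CPM of 12 members in each library (points), with mean ± SD of 3 libraries (bars), by group and on a linear axis that starts at 0. In Acsl5, Cpt1b, Acadvl, Hadha, Hadhb, Acaa2 and Acot11 the wild-type libraries from 8°C stand alone, in Acsl1 both genotypes rise, and in Cpt1a and Acot1 the libraries from 8°C overlap those from 30°C.

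Ratios of counts within a library do not depend on scaling. Each was compared by an exact two-sided permutation test of 3 libraries against 3, in which groups that do not overlap give p = 0.1, the smallest possible, and adjusted p = 0.255 over the 56 tests run. None can therefore pass a threshold of 0.05. The ratio of Hadha to Hadhb was 0.993 ± 0.0551 and 0.937 ± 0.0931 (SD, n = 3) in wild types at 30°C and 8°C, and 0.984 ± 0.115 and 0.9897 ± 0.0405 in mutants, overlapping in every comparison. The ratio of Pcca to Pccb was 0.442, 0.515 and 0.411 in wild types at 30°C and 0.665, 0.646 and 0.718 at 8°C, and 0.4998, 0.501 and 0.518 and 0.698, 0.617 and 0.612 in mutants, apart between temperatures in both genotypes. Etfa had 17.96, 17.7 and 15.8 times the counts of Etfb in wild types at 30°C and 18.5, 29.9 and 31.3 times at 8°C, and 22.03, 16.98 and 24.2 and 17.6, 35.6 and 36.95 times in mutants. Read pairs that fit several genes or places were not counted, so the level of Etfb is uncertain. Their part in this ratio was not tested.

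Among the counts of the 4 dehydrogenases named for a chain length, Acadvl took 28.1, 28.9 and 28.00% in wild types at 30°C and 40.4, 36.6 and 34.5% at 8°C. In mutants its share was 26.8, 36.4 and 25.1% and 29.2, 29.7 and 24.3%, overlapping between temperatures. The share of Acads was 12.1 ± 0.492% at 30°C and 6.93 ± 0.376% at 8°C in wild types, and 12.5 ± 0.566% at 30°C and 10.02 ± 0.768% in mutants (SD, n = 3), apart in both genotypes and between the genotypes at 8°C. These shares also depend on transcript length, which does not change between groups.

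Acsl5 took 8.75, 7.86 and 4.84% of the counts of Acsl1, Acsl3, Acsl4, Acsl5 and Acsl6 in wild types at 30°C and 14.9, 13.3 and 13.2% at 8°C. In mutants its share was 6.04, 6.95 and 3.39% and 3.802, 4.01 and 2.22%, so that at 8°C every library was below every wild-type library of either temperature. Acsl1 held the largest share in every library, from 83.0% to 96.3%. Cpt1b was 8.54, 7.12 and 8.18% of the counts of Cpt1a and Cpt1b in wild types at 8°C, and 1.53, 1.28 and 0.165% in mutants at 8°C, with 0% to 0.36% in the 6 libraries from 30°C. Since the level of Cpt1b is uncertain, these values do not give the part of each isoform in the transcripts of CPT1. The ratio of Acot2 to Acot1 was 0.432, 0.369 and 0.636 in wild types at 30°C and 1.63, 1.33 and 2.25 at 8°C, and 1.03, 0.9700 and 2.68 and 1.14, 1.18 and 1.85 in mutants. Its wild-type temperatures were apart, and at 30°C the genotypes were apart as well.

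**Figure D4:**
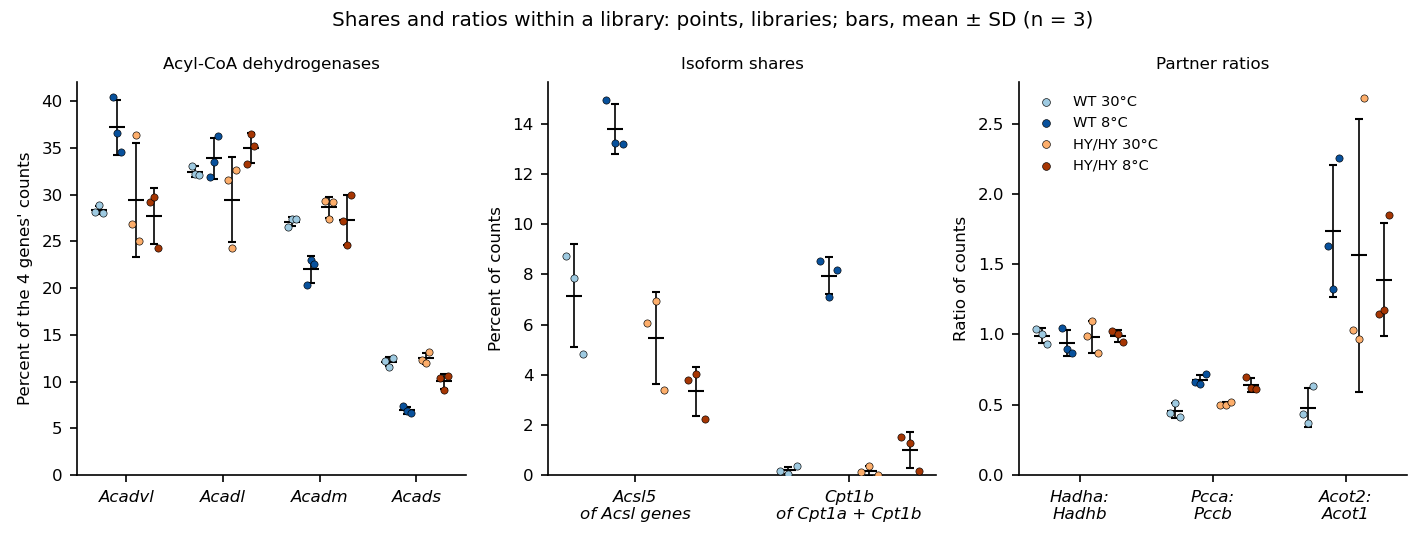
Shares and ratios of counts within each library (points), with mean ± SD of 3 libraries (bars), for 4 acyl-CoA dehydrogenases, for Acsl5 and Cpt1b among their isoforms, and for 3 pairs of genes. In wild types at 8°C the shares of Acadvl, Acsl5 and Cpt1b are higher than at 30°C, whereas the ratio of Hadha to Hadhb stays near 1 in all 4 groups.

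Genes around the pathway were counted with the same test. Of 8 tested genes of carnitine supply and shuttling, 4 rose and 1 fell in wild types with cold. Slc25a20, the carnitine and acylcarnitine carrier that links CPT1 to CPT2, rose in both genotypes, by 2.76 ± 0.25 (SE, adjusted p = 4.23e-05) in wild-type and 1.63 ± 0.24 (SE, adjusted p = 0.022) in mutants, and was lower in mutants at 8°C (-1.29 ± 0.24, SE, adjusted p = 0.00905). Slc25a29, a carrier of basic amino acids first described for acylcarnitines, went the other way: it fell by 1.18 ± 0.20 on the log2 scale (SE) in wild types and was higher in mutants at 8°C (0.97 ± 0.20, SE, adjusted p = 0.0141). Crat, Slc22a5 and Aldh9a1 rose by 1.502, 0.74 and 0.68 in wild types.

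The 3 genes of malonyl-CoA, which inhibits CPT1, all rose in wild types: Acaca and Acacb, which make it, by 1.58 and 1.62, and Mlycd, which breaks it down, by 1.80. Acaca was 555, 693 and 738 CPM in wild-type and 1453, 2512 and 1260.0 CPM in mutants at 30°C, without overlap (1.40 ± 0.26, SE, adjusted p = 0.0358). Acot12, an acetyl-CoA thioesterase, passed the filter on low counts only through wild types at 8°C. Of the 16 other mitochondrial or acyl-CoA enzymes tested, 9 rose in wild types and 1, Mmaa, was lower in mutants at 8°C. Acot12 had 30, 33 and 45 counts in wild types at 8°C and 0 to 3 counts in every other library, which is at least 18.8-fold higher than wild types at 30°C and at least 12.2-fold higher than mutants at 8°C.

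Of 10 regulators that are known to act on these genes, 5 rose with cold in wild types and the same 5 were lower in mutants at 8°C. They were Ppara (2.99 and -2.13), the coactivators Ppargc1a (2.72 and -1.33) and Ppargc1b (1.52 and -1.76), Esrra (1.22 and -0.90) and Gabpa (1.10 and -0.64), given as log2 fold changes in that order. Esrrb fell with cold in wild types (-2.01 ± 0.64, SE, adjusted p = 0.0405) and was lower in mutants at 30°C (-3.22 ± 0.67, SE, adjusted p = 0.0459). Pparg, Ppard, Esrrg and Nrf1 were called in 0 comparisons. The 2 comparisons share the wild-type libraries at 8°C.

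Promoter windows of 300 bases, from 250 before to 50 after the RefSeq start, were given for 34 of the 38 members, all but Cpt1b, Acaa2, Decr1 and Acot13. They were searched on both strands for letters that known regulators prefer, over 32851 windows in all. AAGGTCA, the half-site of the estrogen-related receptors, was in 1 of 34 members' windows, Acadm, and in 4.72% of all windows. The repeat bound by PPARs, AGGTCA followed by any base and AGGTCA again, was in 0 members and in 0.04% of windows, and it overlaps the former where its first base follows an A. CCGGAAG, of the ETS family that includes GABPA, was in 1 member, Cpt2, and in 8.86% of windows. The letters preferred by NRF1, GCGCA followed by any base and GCGC, were in Acad10, Etfb, Etfdh and Pccb and in 4.60% of windows. CCAAT was in 19 members and in 37.4% of windows, and TGACGTCA, the cyclic AMP response element, in 0 members and in 1.79% of windows. These matches describe letters in a window and no binding was measured.

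Acadm, whose human counterpart is a textbook target of these receptors, is shown for the only such match, with AAGGTCA in capitals on its reverse-complement form (250 bases before the start, GRCm38.p6, chr3:153944644-153944893, minus strand).
Acadm: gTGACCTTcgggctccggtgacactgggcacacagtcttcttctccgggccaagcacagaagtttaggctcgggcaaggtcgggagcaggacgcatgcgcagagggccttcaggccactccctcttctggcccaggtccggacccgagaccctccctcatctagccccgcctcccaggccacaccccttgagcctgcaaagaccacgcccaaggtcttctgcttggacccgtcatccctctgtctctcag

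The members' levels were also set beside the cell markers. Of the thermogenic markers, 6 of 6 rose with cold in wild types, 3 of 6 in mutants (4 with the replicate block), and 5 of 6 were lower in mutants at 8°C. Over all genes, 10.3% rose in wild types and 0.181% in mutants (0.774% with the block), and 4.42% were lower in mutants at 8°C. In replicate 3 of mutants at 8°C these markers summed to 525 CPM, the lowest of the group, against 1266 and 1665 CPM, while the members summed to 13079.9 CPM, the highest, and white adipocyte markers to 45876 CPM, the highest. Where each member counts equally, the mean log2 CPM of the 38 was 6.87 in that library, against 6.88 and 6.92. That mean includes Cpt1b, with 1 count there against 16 and 14. It was not computed without Cpt1b, so its order is not read. The sum leans on Acsl1. Of the white adipocyte markers, 2 of 7 were higher in mutants at 8°C and 0 were lower. With cold in wild types 2 of 7, Lep and Cfd, were lower and 0 were higher. Macrophage markers summed to 127 to 141 CPM in wild-type and 218 to 298 CPM in mutants at 8°C, with 3 of 6 called higher, and mammary epithelium markers to 1988 to 2288 CPM and 1226 to 1905 CPM, with 0 of 8 called. The part of any of these cell types in the members' results was not tested.

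**Figure D5:**
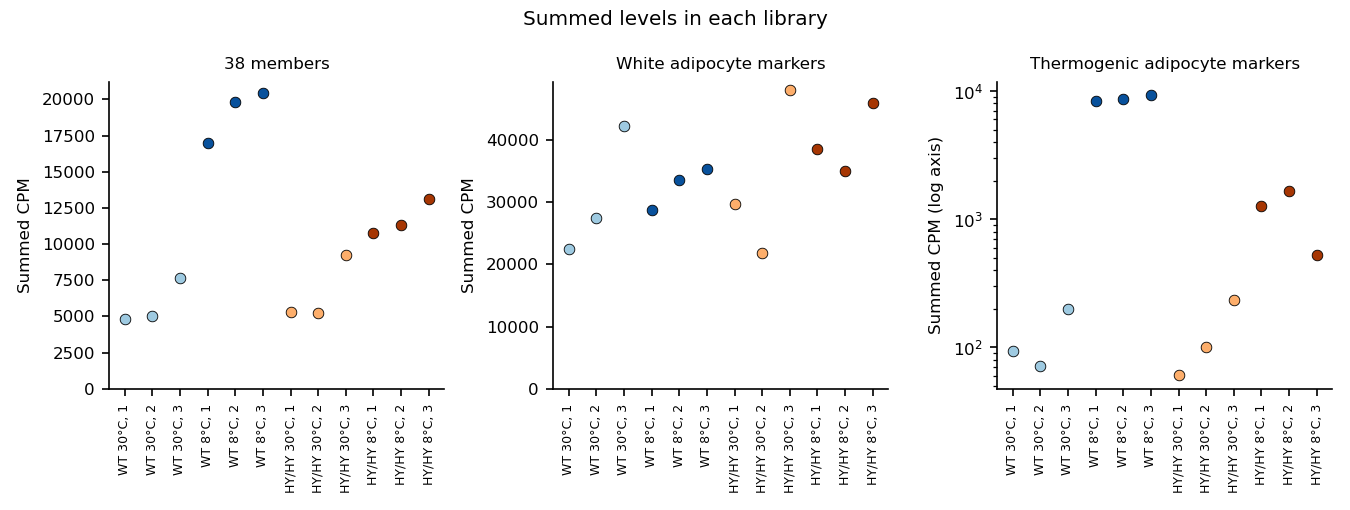
Summed CPM of the 38 members, of 7 white adipocyte markers and of 6 thermogenic adipocyte markers (log axis) in each of the 12 libraries. Members and thermogenic markers are highest in wild types at 8°C, and replicate 3 at 30°C is the highest library of its group in all 3 panels for both genotypes.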

How the data were processed

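RNA of scWAT was sequenced in 12 libraries, 3 per group. According to the study's methods, the authors trimmed the reads with fastp and aligned them with STAR to mm10 with the GENCODE M25 genes. The deposited values are raw counts per gene, given unstranded and for each strand, and versions are not given in the sources used here. The column of the sense strand was used (for 37 of the 38 members, the antisense share was under 5% in every library). Between 26.7% and 32.2% of read pairs mapped to several places and were not counted. Library sizes were 13592629 to 26352081 counts.

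Genes were filtered with filterByExpr, scaled by TMM and tested in 1 fit of all 12 libraries with the quasi-likelihood test of edgeR 4.0.16 (R 4.3.3, limma 3.58.1), with Benjamini-Hochberg adjustment over 16540 genes. The common biological coefficient of variation was 20.7%, with 8 residual degrees of freedom. Calls took an adjusted p under 0.05 with a fold over 1.5 or under 0.67, without the fold limits for the interaction. The SE is the log2 fold change divided by the root of F. Alternatives were library totals, DESeq2 1.42.0, other filters, both strands, a replicate block, other call limits and the omission of each library. Ratios were tested with scipy 1.17.1. The edgeR procedure was run on simulated counts, drawn independently, with changes only in wild types at 8°C. They held no shift shared by the genes of a library, so this run does not address the dependence on single libraries.

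The members and lists were chosen with earlier results of these data known. Library values are given, in each role, for the member with the highest mean level, for those with the largest change by cold in wild-type mice and by genotype at 8°C, for any called against the direction of most, and for the pairs Cpt1a and Cpt1b, Hadha and Hadhb, Etfa and Etfb, and Acot1 and Acot2. Other genes are named only where called or, for Pparg, Ppard, Esrrg and Nrf1, to complete a list. Replicate numbers come from the labels. In the cold comparison of Jmjd1a HY/HY mice all 3 same-number pairs of libraries deviated together (correlations of 0.112 to 0.303), so the blocked values stand beside its results. The block gives each number 1 effect shared by all 4 groups, also where same-number pairs did not all deviate together. Cpt1b and, outside the members, Acot12 and the muscle marker Tnni2 passed the filter through 1 group only.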

Additional observations from a re-analysis of the deposited data

Results flagged for a closer look

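The cold response differed between the genotypes in the interaction test for 16 genes of the lists, which is why they are given here. The values are the log2 fold change with cold in mutants minus that in wild types, at an adjusted p under 0.05 by edgeR. Among the members, the differences were -1.71 for Acsl5, -0.78 for Acsf2, -1.16 for Acsf3, -1.48 for Acss1, -1.63 for Acadvl, -1.55 for Hadha, -1.68 for Hadhb, -2.33 for Acaa2, -1.62 for Acot2, -3.35 for Acot11 and -1.39 for Mcee. Outside the members they were -4.43 for Acot12, -2.19 for Ppargc1a, -1.83 for Acaca, -0.71 for Gabpa and 1.34 for Slc25a29. Acot12 passed the filter on low counts only through wild types at 8°C and had 0 to 3 counts elsewhere, so that its value depends on the prior count of the fit and supports nothing. Slc25a29 was the only one of the 16 with a positive difference.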

How the results depend on the processing

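No called member turned its direction, while the median difference between genotypes at 30°C, where 0 members were called, changed sign. Apart from the replicate block in mutants, counts under other settings are given without the share of all genes called there. They show only how the members' calls moved. In wild types, 23 of the 29 cold calls held under every alternative that kept the call limits and gave a value. So did 11 of 17 at 8°C between genotypes, 3 of 11 interactions and 0 of 1 in mutants. The 23 include Cpt1b, which passed the filter only through wild types at 8°C and was not tested under every alternative. Wherever it was tested, Cpt1b is also part of the counts and medians that follow. The cold count in mutants was 2 with library totals, 11 with DESeq2, 3 with no filter, 0 with only the libraries compared, 9 with the replicate block, 0 at an adjusted p under 0.01 and 0 to 20 when a library was left out. Without replicate 2 of wild types and replicate 3 of mutants at 30°C, an alternative chosen after seeing the data, it was 20, its median was 0.84, the median between genotypes at 30°C was -0.19, and the interaction had 5 calls with a median of -0.53. The interaction count was 3 to 15 with a library left out and 2 at an adjusted p under 0.01, and its median was -1.01 to -0.62. Between genotypes at 8°C, 11 to 21 members were lower with a library left out, and 1, Acadsb, was higher with library totals. At 30°C, 1 was lower with DESeq2, with no filter and with the replicate block. Leaving out a library gave 25 to 30 cold calls in wild types with a median of 1.41 to 1.66, and medians of 0.45 to 0.85 for cold in mutants, -0.93 to -0.78 at 8°C and -0.13 to 0.33 at 30°C. With library totals the medians were 1.18 for cold in wild types and -0.59 for the interaction, while all genes moved from -0.07 to -0.41 and from 0.04 to 0.25. Relative to all genes, the members' median stayed at 1.58 in wild types. In the other 3 comparisons of 2 groups, 2 of 3 same-number pairs had a correlation over 0.1, so the numbers were not taken as pairs there. The replicate block gave 30 cold calls in wild types, 21 lower at 8°C and 13 interactions, and 4 of 12 libraries correlated best with their own number in every other group. Of 224 recomputed ratios, 18 moved by more than 1 SD. Cpt1b had no value with at least 10 counts in every library. The causes were not tested. Cpt1b and Acot12 had 0 to 4 counts in the libraries from 30°C, so that their fold changes are uncertain. Read pairs that fit several genes or places were not counted, and their part in these low counts was not tested.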

Other observations

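The level of Acsl1 alone was 20.1% to 23.3% of the 38 members' sum in wild types at 30°C and 13.01% to 15.1% at 8°C. In mutants it was 21.5% to 25.9% and 26.1% to 33.6%, so that at 8°C the genotypes did not overlap.

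Among the markers of other cell types, 3 of 4 endothelial genes rose with cold in wild types and 0 in mutants. Skeletal muscle markers were lower at 8°C in wild types for 6 of 7 tested, a comparison that holds the 1 library with high muscle markers. Among the 6 is Tnni2, which passed the filter on low counts only through wild types at 30°C, so that its call supports nothing. Mammary epithelium markers were lower for 3 of 8 in the same comparison, and 1 of 8 was lower in mutants at 30°C. Fibroblast and progenitor markers had 1 of 5 higher in mutants at 8°C, and lymph node and erythrocyte markers were called in 0 comparisons by edgeR.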
